A study of Mus musculus with 8 samples.

Results

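The Malat1 locus carried 108 of the 2055 sites in the authors' deposited table of sites at which C-to-U conversion differed between aged and young mouse cortex cells. They were chosen by gene name from a table whose sites all differ with age, so they were selected on the age difference itself. Of the 108 sites, 87 were assigned to Malat1 and 21 to Gm37376, a short transcript model on the opposite strand. Malat1 lies on the minus strand at chr19:5795690-5802672 (mm10) and its longest model is a single exon of 6983 bases. Gm37376 lies on the plus strand at chr19:5801941-5802393 and is a single exon of 453 bases, which faces bases 280 to 732 of Malat1. Positions along the locus are counted from 1 at the annotated 5' end of Malat1, for the sites of both genes.

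Malat1 is a long noncoding RNA that stays in the nucleus, gathers at nuclear speckles and is among the most abundant RNAs of neurons. Its 3' end is cut by RNase P next to a tRNA-like sequence that is released as the small RNA mascRNA. Malat1 carries N6-methyladenosine (m6A), which is known from other cells to open a hairpin of the RNA and expose a U tract to the protein HNRNPC, and which the nuclear reader YTHDC1 binds. Gm37376 is an unclassified model in GENCODE.

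The assay reads m6A through APOBEC1-YTH, a fusion of the cytidine deaminase APOBEC1 with the YTH domain that binds m6A. The enzyme turns C near the methylated A into U, and the C-to-U changes are counted in the reads of single cells (scDART-seq). The aged group comprised 8 samples, which are 4 lanes of each of 2 sublibraries. They came from cortex of APOBEC1-YTH mice that were 12 to 14 months old when treatment began. These mice received tamoxifen at 20 mg/kg at intervals of 24 h over 5 days, with collection 7 days after the last dose. The cells were dissociated, fixed whole and barcoded by split pooling of polyA RNA, while the series' design text speaks of sorted nuclei and total RNA. The young cells belong to a separate series, and their age, genotype and treatment are not analysed here. The sources used here state neither the number of mice nor the promoter that drives the transgene. The table pools 846 aged and 2623 young cells, so replicate errors cannot be given and no test between the ages was made here. Brackets after a share hold its 95% Clopper-Pearson (exact binomial) limits, for counting error alone. Read depth is unknown. Neither expression nor markers of cell types nor a sample with APOBEC1 alone were used here.

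No adjusted p in the authors' deposited table was above 0.05, and no site had equal mean C-to-U in both ages. The age differences at these sites are therefore descriptions. The member nearest to the limit of the table had an absolute log2 ratio of 0.587, and no listed site was below 0.580.

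The sites with the largest differences are shown first, each with 10 bases on either side, read 5' to 3' on the strand of its gene. Capitals mark the edited C, which is the last capital, and the 2 bases before it. In an m6A site of the usual kind these 3 letters are RAC, where R is A or G. The 6 Malat1 sites whose mean C-to-U decreased most in aged cells were these.
Malat1, base 5675: aacaggtgAACgagccttttc
Malat1, base 1073: ctttagacAGCcacatacaag
Malat1, base 6074: cagcccaaACCtcaagttgtg
Malat1, base 6073: ccagcccaAACctcaagttgt
Malat1, base 4874: tgatgtgaGACcttgcagtga
Malat1, base 2375: cgttttttTTCtaagattttc
The 6 Malat1 sites with the largest increase were these.
Malat1, base 3181: taaaggtaTGCtttttttctt
Malat1, base 5505: gaatccagACCcagtaaggaa
Malat1, base 3828: gagcaggaAACagcagactgc
Malat1, base 4954: tttttacaGACcacacagaat
Malat1, base 3922: tccaaaaaGACctgtagagct
Malat1, base 4450: aactttaaGGCaggaaagaca
The 5 Gm37376 sites with the largest difference in either direction were these.
Gm37376, base 450: ttttctcaATCttttaaaact
Gm37376, base 423: cattttcaAACtattctctac
Gm37376, base 427: acctcattTTCaaactattct
Gm37376, base 470: cggccgtcAACttaacctact
Gm37376, base 405: tacaacttTACtgttttaaat

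At most Malat1 sites a larger share of aged than of young cells was called methylated, but the conversion within those cells was lower. By share of methylated cells, aged exceeded young cells at 75 of 87 Malat1 sites and at 18 of 21 Gm37376 sites, against 75.4% of all listed sites. C-to-U within methylated cells was higher at 16 of 87 and 3 of 21 sites, against 31.9% of the listed sites with a methylated aged cell. The product of both, the mean C-to-U with all cells counted, was higher at 29 of 87 Malat1 and 3 of 21 Gm37376 sites, against 41.5% of all listed sites.

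A higher share went with a lower conversion within cells at 64 Malat1 sites (73.6%) and 15 Gm37376 sites (71.4%), against 54.0% over the table. At 47 Malat1 sites (54.0%) and 15 Gm37376 sites this left a lower mean in spite of a higher share, against 35.3% over the table. C-to-U within methylated cells was computed as the mean divided by the share, so at a given mean a higher share lowers it. On the log2 scale the ratio of the means is therefore the sum of the ratios of its parts, site by site. For Malat1 the median log2 ratio of aged over young was 1.09 for the share, -1.68 for the conversion within methylated cells and -0.82 for the mean. Over all listed sites with a methylated aged cell the medians were 1.14, -0.84 and -0.87. The shift in share at Malat1 was thus close to that of the table, while the drop within cells was larger. For Gm37376 the medians were 1.12 for the share, -2.85 within cells and -1.40 for the mean. Sites of the locus share cells and reads, so the difference from the table was not tested. Reads per cell are not known, so the part of depth in the share and in the conversion within cells was not tested.

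**Figure D1:**
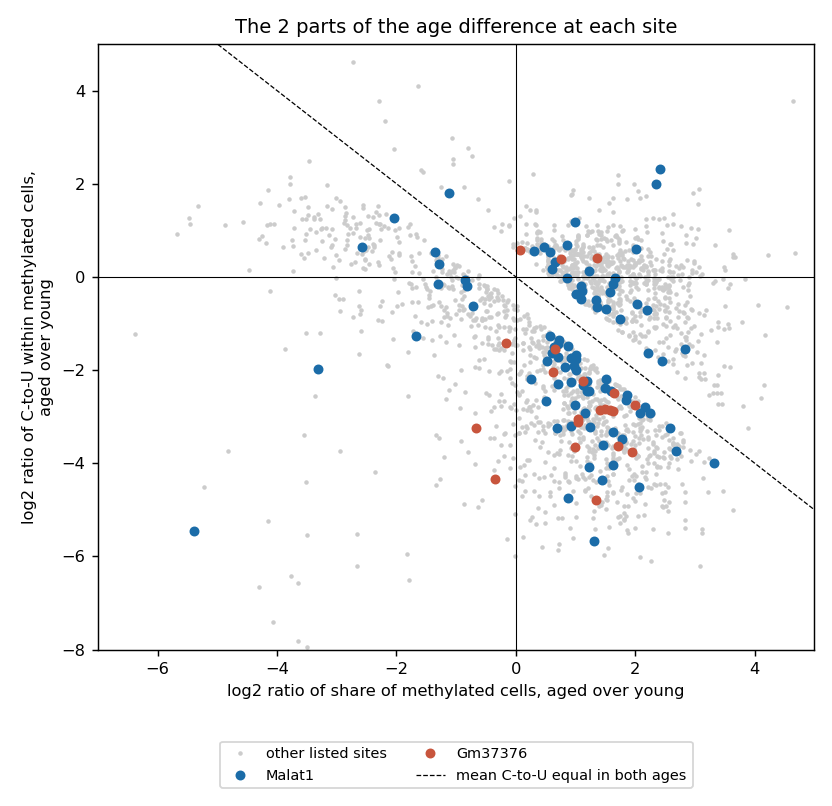
Each point is a listed site, with the log2 ratio (aged over young) of the share of methylated cells on the x axis and that of C-to-U within methylated cells on the y axis. Malat1 (blue) and Gm37376 (red) points lie mostly at lower right, with 64 of 87 and 15 of 21 sites higher by share and lower within cells, and the band along the dashed line of equal means is empty because no listed site had an absolute log2 ratio of the means below 0.580.

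The locus lay above the median of the table in share and below it in conversion within cells. The median share of methylated cells over Malat1 sites was 5.60% in young and 10.9% in aged cells, and over Gm37376 sites 13.5% and 27.2%, against 1.14% and 2.48% over all listed sites. Of the 21 listed sites called in over 50% of aged cells, 17 were at this locus, 11 in Malat1 and 6 in Gm37376. In young cells it was 3 of 10, 2 in Malat1 and 1 in Gm37376. Of these sites, 10 of the 17 and 1 of the 3 lay in a repeat, bases 624 to 690, that also occurs in other genes. The assignment of reads to the locus is uncertain there. Conversion within methylated cells had a median over Malat1 sites of 2.78% in young and 0.617% in aged cells, and over Gm37376 sites of 1.36% and 0.153%, against 17.8% and 7.22% over the sites of the table with a methylated aged cell. Conversion within methylated aged cells was under 0.1% at 17 listed sites, of which 15 belonged to the locus, 7 of them in that repeat. It was under 1% at 50 of 87 Malat1 and 17 of 21 Gm37376 sites, against 23.9% over the table. In young cells it was under 1% at 19 Malat1 and 10 Gm37376 sites, against 5.06%. Whether levels this low exceed read error was not tested, so a cell called there is not shown to carry m6A. Among the 40 listed sites of lowest conversion within cells, the locus had 21 in aged cells (10 in Malat1 and 11 in Gm37376) but 4 in young cells (2 in each gene). Such levels were not particular to the locus. Of the genes with at least 10 listed sites, CT010467.1 had a median share of 21.7% in young and 8.75% in aged cells, with conversion within them at 0.338% and 0.367%. Lars2 had median shares of 10.5% and 5.20%, with conversion within cells at 0.517% and 0.397%. In both of these genes the median share was higher in young cells, the reverse of Malat1. Among the 87 Malat1 sites the shares in young and aged cells had a Spearman correlation of 0.683, a description across sites that share cells and libraries.

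The largest decrease was at base 5675, chr19:5796998, where the edited C is the last letter of AAC. In young cells 52.8% (50.9 to 54.8) were called methylated and in aged cells 8.87% (7.04 to 10.99). Mean C-to-U came to 6.52% in young and 1.70% in aged cells, and within methylated cells it was 12.3% and 19.2%. This site held 21.7% of the C-to-U summed over the Malat1 sites in young cells. It therefore went against the pattern of the locus, with fewer cells called and a higher conversion within them. Its adjusted p in the authors' deposited table was 3.03e-65.

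Base 1073 followed the pattern of the locus in share and differed by its size. Its share was 14.7% (13.3 to 16.1) in young and 36.5% (33.3 to 39.9) in aged cells, while C-to-U within methylated cells was 22.5% and 0.440%. Its mean was 3.30% in young and 0.161% in aged cells, although its C follows G and not A. The adjacent bases 6073 and 6074 were lower in aged cells by every measure. Base 6073 was called in 246 of 2623 young and 8 of 846 aged cells, or 9.38% (8.29 to 10.6) and 0.946% (0.409 to 1.85). Base 6074 was called in 130 young cells and 1 aged cell, or 4.96% (4.16 to 5.86) and 0.118% (0.00299 to 0.657). The aged values within cells at these bases rest on those 8 cells and that 1 cell.

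At base 4874 the share was 11.5% (10.3 to 12.8) in young and 4.49% (3.20 to 6.11) in aged cells, with C-to-U within methylated cells at 14.98% and 21.8%. At base 2375, after a run of U, the share was 29.7% (28.0 to 31.5) and 18.1% (15.5 to 20.8), with 2.90% and 1.87% within cells. In all, 12 Malat1 sites had a lower share in aged cells, and all 12 lay from base 2308 onward. Of these 12, 5 had a higher conversion within cells, at bases 2308, 4582, 4646, 4874 and 5675. The intervals of the young and the aged share did not overlap at 81 of the 87 Malat1 sites and 19 of the 21 Gm37376 sites, against 62.5% of all listed sites. The sites were selected on an age difference and have more methylated cells than most, with a median of 247 for Malat1 and 606 for Gm37376 against 54 over the table, so nothing is read from this count.

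Among the increases, base 3181 had the highest mean of any Malat1 site in aged cells. Its mean was 2.17% in young and 3.90% in aged cells, with shares of 22.9% (21.3 to 24.6) and 28.3% (25.2 to 31.4). Its edited C follows G and stands before a run of U, outside RAC. The steepest increases were at bases 3828 and 5505. At base 3828, in aaac, the mean was 0.0401% (young) and 1.06% (aged), a 26.5-fold difference, with shares of 4.84% (4.05 to 5.73) and 25.9% (23.0 to 29.0). At base 5505 the mean was 0.0532% and 1.08%, a 20.3-fold difference, with shares of 4.04% (3.32 to 4.87) and 20.4% (17.8 to 23.3). At both sites the conversion within methylated cells was also higher in aged cells, 4.10% against 0.827% at base 3828 and 5.28% against 1.32% at base 5505.

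Bases 4954 and 3922 both follow GA in a GAC. At base 4954 the mean was 0.313% (young) and 0.912% (aged), and at base 3922 it was 0.105% and 0.474%. Base 4450, in GGC, had 0.225% and 0.571%. All 6 of the largest increases were higher by share, by conversion within cells and by mean. Adjusted p-values in the authors' deposited table were 7.30e-69 for base 3828, 9.38e-51 for base 5505 and 0.0302 for base 3181.

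**Figure D2:**
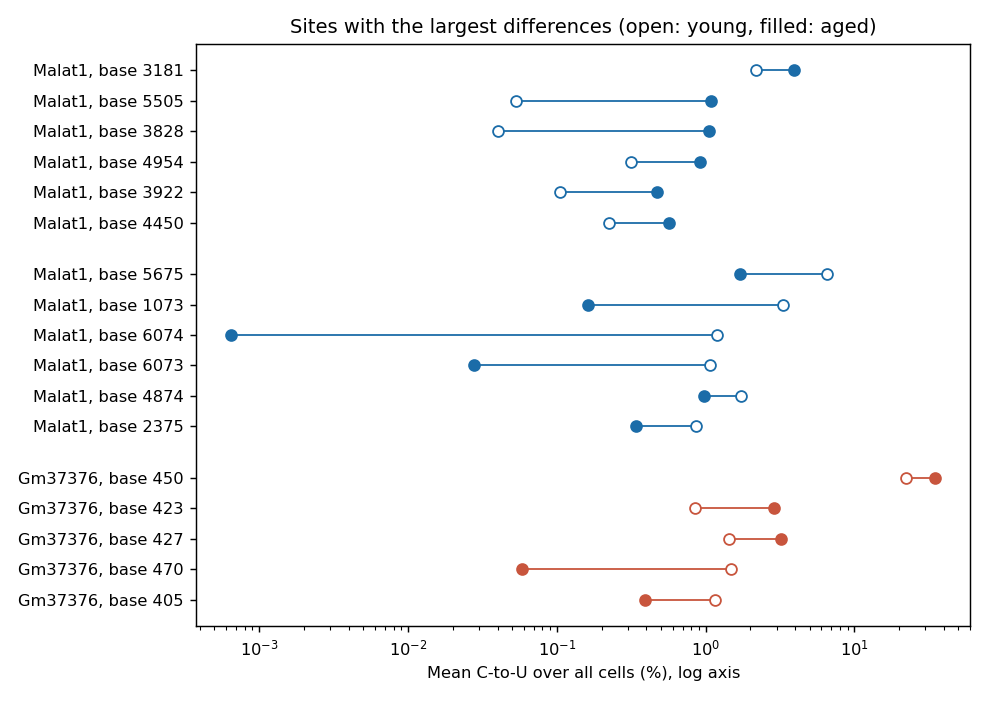
Mean C-to-U over all cells (percent, log axis) in young (open) and aged (filled) cells at the 6 Malat1 sites with the largest increase, the 6 with the largest decrease and the 5 Gm37376 sites with the largest difference. The drop is longest at base 6074, which was called in 1 aged cell, and the highest means are at base 450, at 22.2% and 34.9%.

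Along the RNA the sites were unevenly spread. The first 1000 bases held 17 Malat1 sites and all 21 Gm37376 sites, and the fourth stretch of 1000 bases held 17 more Malat1 sites. Bases 2001 to 3000 held 4, with the longest gap between neighbouring sites, 361 bases from base 2651 to base 3012. Per 100 C, the first 1000 bases had 13.4 listed Malat1 sites and bases 2001 to 3000 had 2.31. The 87 sites were 7.27% of the 1196 C of the RNA.

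By steps of 1000 bases, the share was highest at the 5' end and lowest at the 3' end, with the steps between in no steady order. In the first step the median share over Malat1 sites was 21.8% in young and 51.1% in aged cells, and from base 6001 on it was 1.66% and 4.14%. The first step includes 7 Malat1 sites, between bases 624 and 690, in a sequence that also occurs in other genes. Without those 7 its medians were 12.5% and 31.3%. The young one was then below the 18.6% of the 4 sites in bases 2001 to 3000. Conversion within methylated cells was lowest in the first step, with medians of 0.512% (young) and 0.183% (aged). In young cells it was highest from base 6001 on, at 6.54%, where the aged median was 1.89%. In aged cells it was highest in the fifth step, at 3.90%. A cell with no read at a base counts as unmethylated, so coverage along the RNA enters the shares. Its part was not tested.

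The direction of the mean differed along the RNA as well. In the first 2000 bases 5 of 29 Malat1 sites had a higher mean in aged cells, although the share was higher at all 29. In the fourth and the fifth stretch of 1000 bases, joined as an interval chosen after its values were seen, 18 of 30 were higher by mean, against 11 of the other 57. The median log2 ratio within methylated cells was -0.35 in that stretch and -2.01 outside it, while that of the share was close, at 0.998 and 1.15. Between bases 5001 and 6000, 1 of 14 sites was higher by mean, the site at base 5505.

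**Figure D3:**
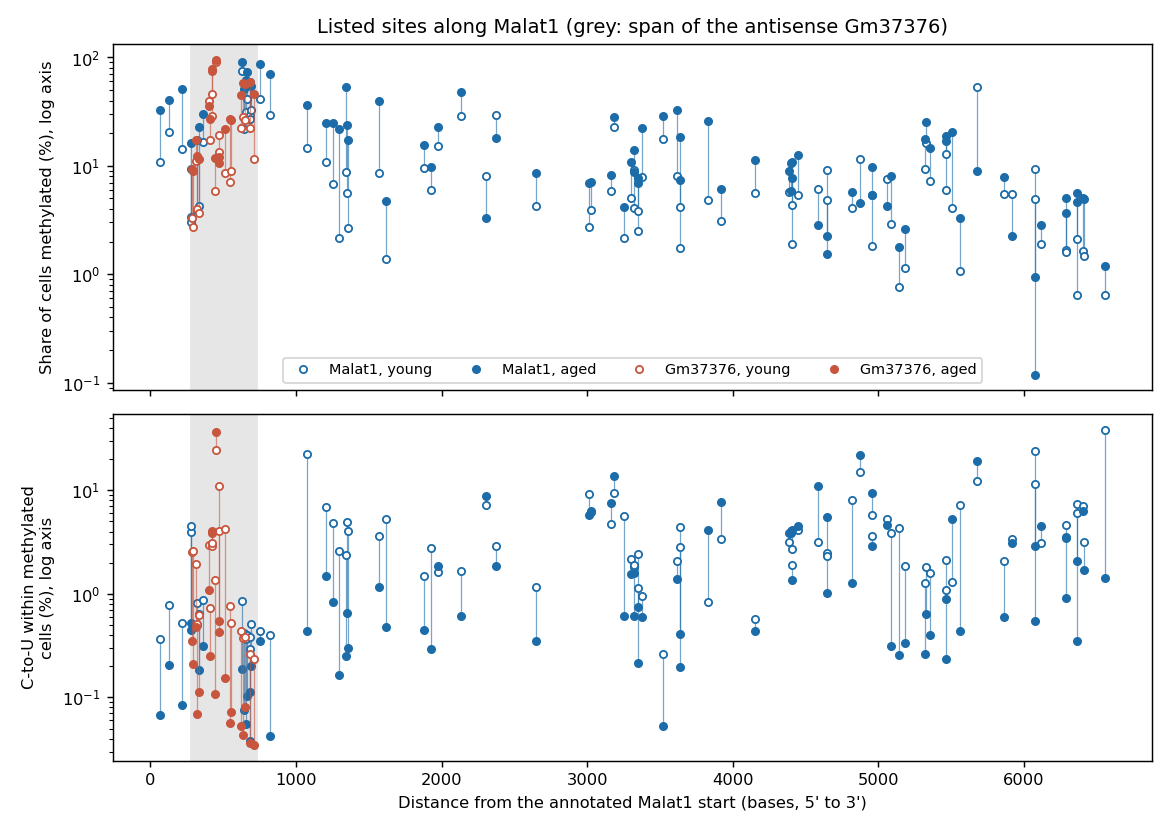
Share of methylated cells (top) and C-to-U within them (bottom), both in percent on log axes, against the distance from the Malat1 start, with open symbols for young and filled for aged cells and grey for the span of Gm37376. Shares are highest near the start, and at base 5675 the young share of 52.8% stands above the aged share of 8.87%.

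Where both genes overlap, the table listed 33 sites, 12 for Malat1 and 21 for Gm37376. At all 21 Gm37376 sites the edited base was a C on the plus strand, which is a G of Malat1, so that no base was counted for both genes. Whether those reads came from an antisense RNA or from the opposite strand was not tested, as the strand of the reads is not given.

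The stretch below, chr19:5802192-5802274 on the plus strand, holds the 5 Gm37376 sites with the largest differences, with all 8 listed sites in capitals. It is shown because most of the C-to-U of Gm37376 sits in it.
Gm37376, plus strand: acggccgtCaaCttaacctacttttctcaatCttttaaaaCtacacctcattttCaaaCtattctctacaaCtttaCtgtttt

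The site at base 450, chr19:5802223, had the highest mean C-to-U of the whole table in both ages. It was called in 2384 of 2623 young and 806 of 846 aged cells, or 90.9% (89.7 to 92.0) and 95.3% (93.6 to 96.6). Its mean was 22.2% in young and 34.9% in aged cells, and within methylated cells 24.4% and 36.7%. The base before its C is U, so it lies outside AC and RAC. Summed over the 21 sites, mean C-to-U was 29.4 points in young and 41.9 points in aged cells, of which base 450 gave 75.5% and 83.3%. Without it the sums were 7.19 and 7.00 points.

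The neighbouring bases 423 and 427 were the other 2 Gm37376 sites with a higher mean in aged cells. Base 423, in AAC, was called in 28.9% (27.2 to 30.7) of the young and 74.3% (71.3 to 77.3) of the aged cells, with means of 0.847% and 2.88%. Base 427, in UUC, was called in 46.2% (44.3 to 48.1) and 78.1% (75.2 to 80.9), with means of 1.45% and 3.19%. All 3 sites were thus higher in aged cells by each measure. Base 470, in AAC, went from 1.48% (young) to 0.0580% (aged) by mean although its shares were close, at 13.5% (12.2 to 14.9) and 10.6% (8.64 to 12.9), and C-to-U within those cells was 10.97% and 0.545%. At base 405 the mean was 1.16% and 0.390%, and the intervals of the shares overlapped.

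**Figure D4:**
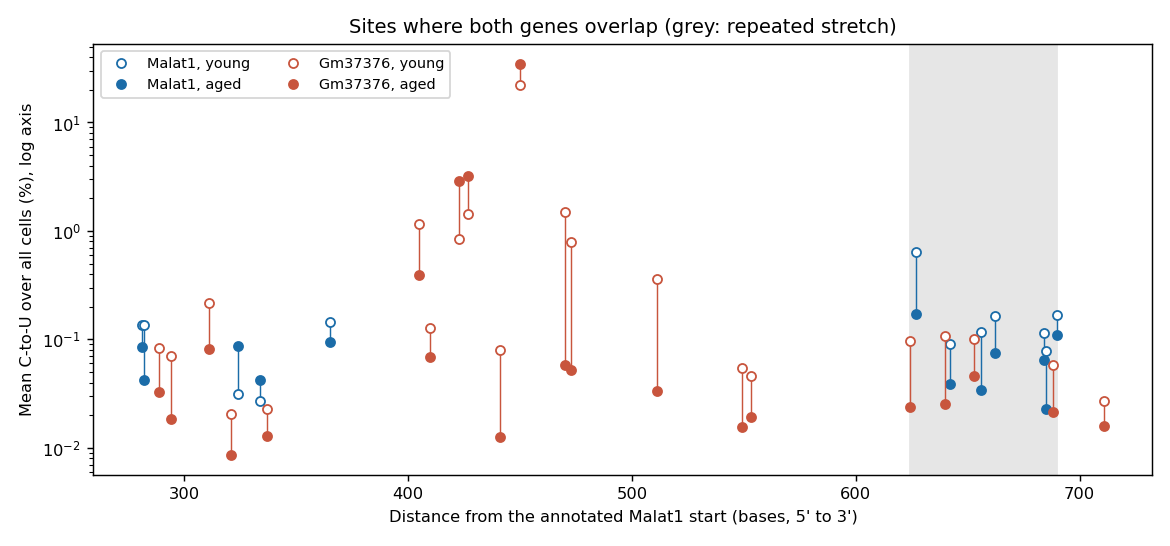
Mean C-to-U over all cells (percent, log axis) in young (open) and aged (filled) cells at the 33 sites where the genes overlap, against the distance from the Malat1 start, with the repeated stretch in grey. Base 450 stands above the rest at 22.2% and 34.9%, and in the grey stretch all 11 sites are lower in aged cells.

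Bases 624 to 690 held 11 sites, 7 of Malat1 and 4 of Gm37376, in a sequence that also occurs in other genes. It is shown on the Malat1 strand, chr19:5801975-5802057, with capital C for Malat1 sites and capital G for bases listed as Gm37376 sites.
Malat1, minus strand: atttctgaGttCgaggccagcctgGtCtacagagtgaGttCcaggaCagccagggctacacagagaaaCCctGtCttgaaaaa
The letters are those of a B1 element, a short interspersed repeat with many copies in the mouse genome. The 21 bases around each of the 11 sites occurred in transcripts of 46 to 1478 other genes of GENCODE M21, so the assignment of reads to Malat1 is uncertain there. In all, 14 members had such a copy, the other 3 of them in 1 other gene each.

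All 11 sites had the same directions, a higher share, a lower conversion within cells and a lower mean in aged cells. Their shares had a median of 28.3% in young and 58.5% in aged cells, and conversion within those cells had a median of 0.382% and 0.0762%. The highest of them, base 627, was called in 75.8% (74.1 to 77.4) of the young and 90.8% (88.6 to 92.6) of the aged cells, with conversion within cells at 0.848% and 0.187%. Base 656, in the same repeat, was called in 31.4% (29.6 to 33.2) and 62.4% (59.0 to 65.7), with 0.370% and 0.0552% within cells. Base 662 was called in 41.0% (39.1 to 42.9) and 72.7% (69.6 to 75.7), with 0.397% and 0.104%.

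Sites of high share were not limited to the repeat. The other 10 Malat1 sites of the first 1000 bases had median shares of 12.5% in young and 31.3% in aged cells, all 10 higher in aged cells by share and lower within cells. Base 755, in GACG, was called in 41.0% (39.1 to 42.9) of the young and 87.8% (85.4 to 90.0) of the aged cells, with a mean of 0.179% and 0.310%. Base 820 was called in 29.5% (27.8 to 31.3) and 69.6% (66.4 to 72.7), with a mean of 0.117% and 0.0296%. Conversion within methylated cells was under 0.5% at both bases in both ages.

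The sequence comparison asked how often the edited C of the locus follows an A, as it does next to m6A. It did so at 38 of 87 Malat1 sites, 43.7% (33.1 to 54.7), against 20.4% (18.0 to 22.9) of the other 1109 C of the RNA. RAC was found at 35 sites, 40.2% (29.9 to 51.3), against 10.4% (8.64 to 12.3), and DRAC, where D is A, G or U, at 33 sites, 37.9% (27.7 to 48.97), against 9.02% (7.40 to 10.9). Over the 1970 listed sites of all genes with a C on the gene's strand, AC made up 76.9% (74.98 to 78.7), so Malat1 lay below the table and above its own unlisted C. Read from the motif, 35 of the 150 RAC of Malat1 were listed, or 23.3%. Only differing sites are listed, so the unlisted C of either gene may include C edited alike in both ages or not covered.

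Gm37376 was nearer to the table. Its C followed A on the plus strand at 15 of 21 sites, 71.4% (47.8 to 88.7), against 17.7% (11.2 to 26.0) of its other 113 C. On that strand RAC was found at 14 sites, 66.7% (43.0 to 85.4), against 6.19% (2.53 to 12.3). The base before was never G, which stood before 19.5% of the other C. Base 450, with the highest conversion, was among the 6 sites without the A.

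Many Malat1 sites without an A stood near one. Of the 49 sites whose C does not follow A, 17 were a later C of a run that begins after A, so that 55 of 87 sites, 63.2% (52.2 to 73.3), belong to such a run, against 25.2% (22.6 to 27.8) of the other C. In 9 cases both bases of a CC were listed, and in all 9 the first C followed A. In young cells the first C had the higher share in 8 of these 9 pairs and in aged cells in 6. Both bases of a pair had the same direction of share in 9 of 9 pairs, and of the mean in 6. At bases 6365 and 6366, in aaaacc, the mean was 0.153% in young and 0.0200% in aged cells at the first base, and 0.0395% and 0.0965% at the second.

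**Figure D5:**
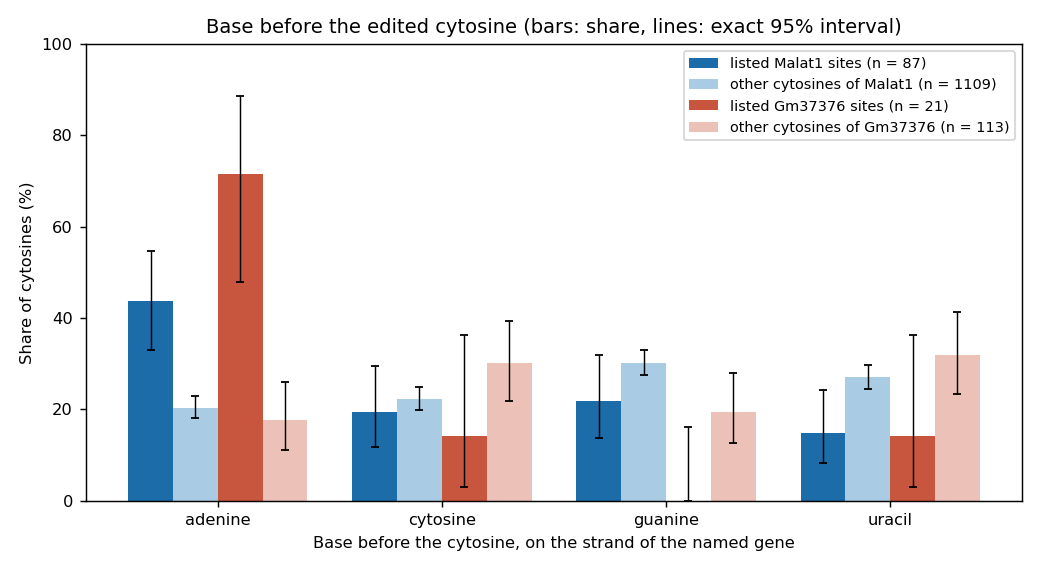
Share of cytosines (percent) by the base before them, for the 87 Malat1 sites, the other 1109 cytosines of Malat1, the 21 Gm37376 sites and the other 113 of Gm37376, each on its own strand, with exact 95% intervals as lines. Adenine stands before 43.7% of the listed Malat1 sites and 71.4% of the Gm37376 sites, against 20.4% and 17.7% of the others.

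Malat1 sites after A and the other Malat1 sites had close medians of share in young cells, 5.79% and 5.53%, and further apart in aged cells, 8.81% and 16.9%. Their mean C-to-U had medians of 0.171% and 0.114% in young cells and of 0.165% and 0.0496% in aged cells. C-to-U within methylated cells had a median of 3.14% in young and 1.57% in aged cells over the 38 sites after A, and of 2.60% and 0.442% over the other 49. Aged exceeded young cells by this measure at 12 of the 38 and at 4 of the 49. The mean was higher at 16 of 38 (42.1%) and 13 of 49 (26.5%), and the share at 30 of 38 and 45 of 49. The sites after A thus lay at the 41.5% of the table by mean. In the first 3 steps of 1000 bases, 6 of 17, 3 of 12 and 2 of 4 Malat1 sites followed A. In the last 4 it was 9 of 17, 8 of 13, 4 of 14 and 6 of 10. The base before the C was thus not separated from position along the RNA.

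Other genes with at least 10 listed sites were ranked by how close their percentages of sites higher by mean, by share and within cells came to those of Malat1. The nearest were Kif1a, a kinesin gene, Map1b, a microtubule-associated protein gene, and Snhg11, a noncoding host transcript. Kif1a had 5 of 15 sites higher by mean, 14 by share and 3 within cells. Map1b had 4, 8 and 2 of 10, and Snhg11 had 20, 41 and 13 of 51. Their median shares in aged cells, 2.25% for Kif1a, 2.25% for Map1b and 3.55% for Snhg11, were below the 10.9% of Malat1.

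Among the other long noncoding RNAs of a list of 16, 7 had listed sites, 229 in all. Of these, 100 (43.7%) were higher by mean, 216 (94.3%) by share and 32 (14.0%) within cells. Over the table it was 41.5%, 75.4% and 31.9%. Meg3 had 144 of the 229 sites, with median conversion within methylated cells at 5.74% in young and 0.988% in aged cells. Snhg14 had 16 of 16 higher by mean, and its conversion within cells had medians of 28.7% and 19.8%, against 2.78% and 0.617% at Malat1. Snhg11, with 51 sites, had medians of 6.65% and 1.52%. Neat1, which lies near Malat1 in the genome, was not among the 7.

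Of 29 genes for proteins of the nuclear speckle, where Malat1 resides, 14 had listed sites, 92 in all. Of these, 48 (52.2%) were higher by mean, 91 (98.9%) by share and 15 (16.3%) within cells. Over the table it was 41.5%, 75.4% and 31.9%. Median log2 ratios of the 92 sites were 1.97 for the share and -1.88 within cells. Both were larger in size than the 1.09 and -1.68 of Malat1. The largest differences were at Luc7l3, a U1-linked splicing factor, Acin1 and Luc7l2, each at a site with a higher mean in aged cells. Of 18 m6A writers, erasers and readers, 3 had listed sites. They were the reader Ythdc1, the writer subunit Zc3h13 and the RNA-binding protein gene Hnrnpa2b1. Of their 7 sites, 3 were higher by mean and all 7 by share. The share of all genes that have a listed site is not known here. Nothing is therefore read from how many genes of each list had sites, the long noncoding RNAs included.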

How the data were processed

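All values rest on 1 deposited table, in which the authors compared aged with young cells. The submitters' processing notes name STAR 2.7.5 and the build mm10, and Bullseye is the site finder according to the series' design text. How reads were filtered, how repeats were handled and which test the authors used is not given in the sources used here. Per the file headers the table gives the percent of cells methylated, the deposited count of methylated cells, the C-to-U fraction over all cells (printed here as a percent), and a p-value and an adjusted p-value. The authors' log2 ratio is young over aged, and its sign was turned. Each percent gave the same 2623 young and 846 aged cells, so cells without reads count as unmethylated. C-to-U within methylated cells was computed as the mean over all cells divided by the share of methylated cells.

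Positions were read as counted from 0 and are printed counted from 1. Read in this way all 108 members were C on the strand of their gene, and read from 1 only 30 were. Sites were placed on transcripts of GENCODE M21 (GRCm38), which matched for 2037 of 2055 sites. Of these, 1970 were C on the strand of their gene. Sequences were read from the GENCODE transcripts, and copies were exact matches of the 21 bases in transcripts of other genes on either strand. Named sites were the 6 largest increases, the 6 largest decreases and the 6 highest pooled shares of Malat1, and the 5 largest differences of Gm37376. Members and gene lists were chosen with earlier results of these data known. Sites named beside these were chosen after their values were seen. Counts, clusters and positions were tested on simulated data. Python 3.11.15, pandas 2.3.3 and scipy 1.17.1 were used.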

Additional observations from a re-analysis of the deposited data

How the results depend on the processing

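Direction depended on the measure. In place of 29 Malat1 sites higher by mean, 75 were higher by share of methylated cells and 16 by conversion within them, and of the Gm37376 sites 18 in place of 3 were higher by share. Of the 38 Malat1 sites after A, 30 in place of 16 were higher by share. With an absolute log2 ratio of at least 1, 14 of the 49 Malat1 sites that remain were higher by mean, a change that comes with the fewer sites. With the position counted from 1, 27 of 87 Malat1 sites were a C at all, and 0% were a C after A. This 0% was fixed in advance and shows nothing. That reading moves to the next base of Malat1, so the base before is always the C of the main reading. Under 50% of the sites were higher by mean in 4 of 7 steps of 1000 bases, in 10 of 14 steps of 500 bases, and by share in 0 of 7. The other 18 alternatives moved the counts by at most 1.5 times (for Gm37376 from 3 to 2 sites, with an absolute log2 ratio of at least 1 and with sites within 10 bases counted once), or left the shares and medians inside the interval of the value reported. They include at least 50 methylated cells, an adjusted p under 0.01, sites within 10 bases counted once, and, chosen after seeing the data, leaving out sites with copies in other genes or inside the span of Gm37376. No paired analysis was possible because the table pools the cells of each age. Leaving out a sample was not possible for the same reason. The number of mice, the read depth and the coverage of each site are not known here, and a share of cells cannot be separated from expression of the RNA. Age also cannot be told apart from the series, since the young cells belong to another one.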

Other observations

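The last listed Malat1 site was at base 6557. The 426 bases after it, with 89 C, held none of the sites, and they include mascRNA, which RefSeq places at chr19:5795924-5795981 (GRCm38.p6), bases 6692 to 6749 of the RNA. The table lists differing sites only, so editing that was alike in both ages would not be seen there.

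The letters TTTTT (a run of U in the RNA, searched on the Malat1 strand only) lay within 10 bases of 6 of 87 Malat1 sites, 6.90% (2.57 to 14.4), against 4.24% (3.13 to 5.60) of the other C. Of these 6 sites, 4 were higher in aged cells by mean, base 3181 among them, against 25 of the other 81. Apart from base 2375, these 6 sites lay in bases 3001 to 5000, where 18 of 30 Malat1 sites were higher by mean. Bases 3319 and 3320 stand before the same run of U. A run of U nearby was thus not separated from position along the RNA, and nothing is read from this contrast.

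At 9 of 21 Gm37376 sites, 42.9% (21.8 to 66.0), the edited C stood in AACT on the plus strand, against 1 of its other 113 C and 7.87% (6.72 to 9.15) of all listed sites with C on the gene's strand. Of the Malat1 sites, 5 of 87 had these letters. This motif was picked after the sites were seen.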
